A study of Caenorhabditis elegans with 8 samples.

Results

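The nematode-specific peptide families, group A to group E (gene symbols nspa to nspe), are sets of very short protein-coding genes of Caenorhabditis elegans that carry family names and, for most members, no described function. A gene was counted as a member when its sequence name mapped, in the WBcel235 annotation of Ensembl, to a symbol made of one of these 5 family names and a number. The annotation lists 58 such genes, and 56 of them were measured here among the 21774 genes of the deposited table. They are 10 nspa, 12 nspb, 17 nspc, 10 nspd and 7 nspe genes, and nspc-18 and nspe-8 were not analysed here. The members were measured by sequencing polyadenylated RNA in 8 libraries, 2 each of sperm, oocytes, 1-cell embryos and 2-cell embryos, to follow the transition from oocyte to embryo.

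All libraries are labelled with the strain TX189 (OMA-1::GFP), kept at 24 °C. The protocol describes the material differently. Sperm came from males of a fog-2(q71) mutant background, a strain in which hermaphrodites make no sperm of their own, and were filtered through nylon mesh and activated with Pronase. Oocytes were picked by hand from cut adult N2 wild-type hermaphrodites. Embryos of the 1-cell stage were collected with a fluorescence-activated cell sorter, and the collection of 2-cell embryos is not described. Strain and collection method therefore cannot be told apart from the stage. No source says that the 2 libraries of a group came from separate cultures, so p-values measure only the spread between these libraries, which may be technical.

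As background, C. elegans sperm finish transcription before the meiotic divisions end, so the RNA of a mature sperm cell was made earlier, in the spermatocyte. Much of the sperm cytoplasm is left behind in a residual body, while fibrous bodies and membranous organelles go into the spermatid. When the sperm is activated, the membranous organelles fuse with the cell surface and release their contents, and proteins of the nspd and nspf groups have been found among the released material. The oocyte, by contrast, is large and stocked with maternal RNA, and little is transcribed from the embryo's own genome at the 1-cell and 2-cell stages. An embryo transcript that is missing from the oocyte is therefore of interest as one the sperm could have carried in, although RNA amounts alone do not show where a transcript came from.

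The families differ in how the genome holds them. All 10 nspa genes have a single exon and an annotated length of 105 nt, a coding length with no UTR, and 9 of them lie on chromosome V and 1, nspa-9, on X. The 10 nspd genes also have a single exon, with coding lengths of 213 to 222 nt, and are scattered over chromosomes I (3 genes), II (2), III (1) and IV (4). No nspd gene has another family member as its annotated neighbour, and nspd-1 lies next to spch-3, a gene of the sperm chromatin protein family. All 17 nspc genes have 2 exons and lengths of 306 to 448 nt, and all are on X, each with another nspc gene as its neighbour, in groups named after the clones C03G5 (7 genes), F42F12 (6) and D1025 (4). The 12 nspb genes have 2 exons and lengths of 240 to 522 nt, with 5 on chromosome II, 1 on III and 6 on IV. The 7 nspe genes lie on chromosome II in 2 runs of neighbours, with the gene Y38E10A.14 between the runs, and have lengths of 216 to 1448 nt. The symbols nspa-1, nspa-5, nspa-7 and nspc-2 each stand for a pair of genes, which are named here with their sequence names. How the authors' counting treated reads that match several copies is not given in the sources used here, so the split of reads between close copies is uncertain.

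Values are RPKM (reads scaled to transcript length and library size), as the authors deposited them, and they compare levels between genes per length. The table gives no counts. Low RPKM were multiplied by gene length and the most frequent product was read as a single read, which put the depth at roughly 2.02e+07 and 7.05e+07 reads in sperm, 2.06e+07 and 3.51e+07 in 1-cell embryos, and 1.76e+07 and 2.99e+07 in 2-cell embryos. For 1-cell replicate 1 the next most frequent product was smaller, at 24.29 (64 genes) against 48.65 RPKM times nt (92 genes). If that product is the single read, the depth and read estimates given for this library are too low. No depth could be had in this way for the oocyte libraries. Their columns list only 2.48% and 2.93% of genes at 0, against 26.4% to 29.4% in the embryo columns, so the oocyte values may have been made in another way. Libraries of a group correlated, over log2 values of the genes tested, at r = 0.93 in sperm, 0.995 in oocytes, 0.963 in 1-cell embryos and 0.969 in 2-cell embryos. Defining markers fitted the labels of sperm and oocytes, since all 12 sperm markers were higher and all 10 oocyte markers were lower in sperm than in oocytes (limma on log2 RPKM, adjusted p under 0.05 and at least 1 on the log2 scale). The sperm libraries also held other transcripts. Summed oocyte markers reached 946 and 250 RPKM in sperm, against 20470 and 19800 RPKM in oocytes, and 5 body wall muscle markers summed to 837 and 1502 RPKM in sperm, against 1.32 and 0.634 RPKM in oocytes.

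The 5 families fell into 3 levels. Of the 10 nspd genes 9, and of the 10 nspa genes 8, exceeded 100 RPKM in each of the sperm libraries. The exceptions were nspd-8, which stayed under 1 RPKM everywhere, and nspa-9 and nspa-10, at 10.5 RPKM or less in sperm. The 9 nspd transcripts were also present at a low level in embryos, as was nspa-5 (H12D21.13), at 6.34 to 19.7 RPKM. The weakest of the 9 was nspd-10, at 0 in 1-cell replicate 1 and 0.384 RPKM in 2-cell replicate 1. The nspc genes were found at a few RPKM in sperm and hardly elsewhere. The nspb and nspe genes stayed at about 1 RPKM or less in all 8 libraries. In bulk RNA, fewer cells of a type and less RNA per cell cannot be told apart, and this holds for every level given here.

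**Figure D1:**
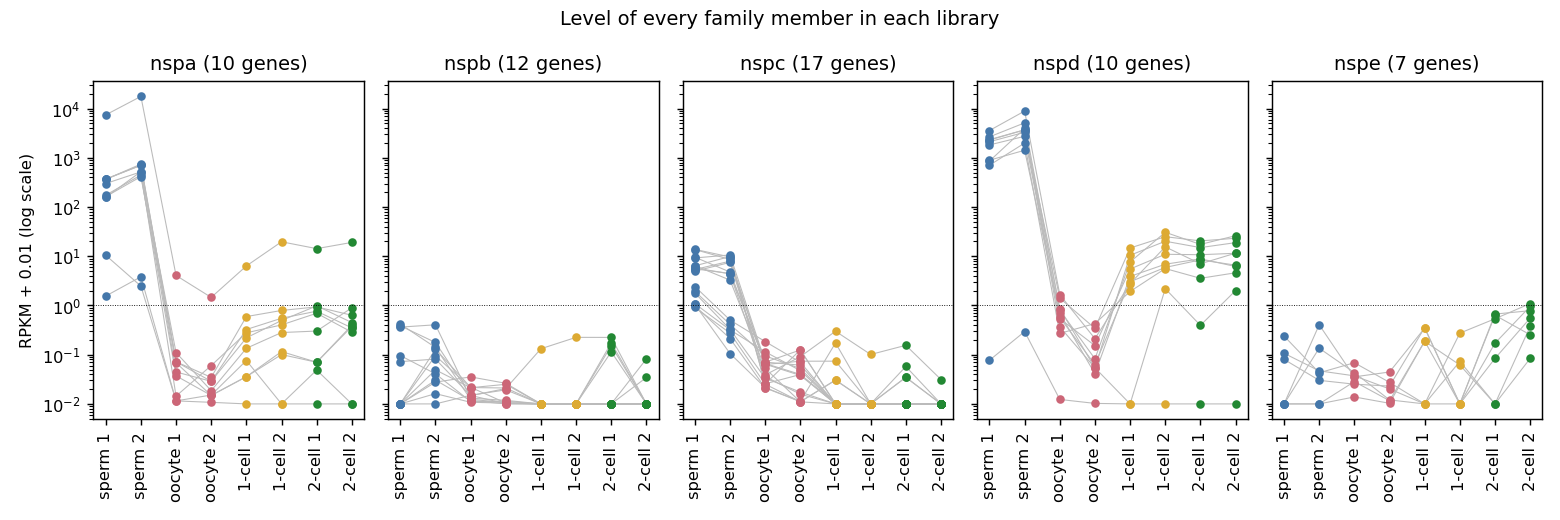
RPKM plus 0.01 on a log scale for each of the 56 genes in each of the 8 libraries, with 1 panel per family and a line joining the values of 1 gene. Values of 0 sit at 0.01 and the dotted line marks 1 RPKM. The nspa and nspd panels reach 17680 and 8913 RPKM in sperm, the nspc panel stays under 20 RPKM, and nspb and nspe stay near or under the dotted line.

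The nspd genes gave the highest family sum in sperm, at 17280 RPKM in sperm replicate 1 and 34840 RPKM in sperm replicate 2. These sums were 1.81% and 3.44% of all RPKM in their libraries. The family summed to 7.08 and 1.34 RPKM in oocytes, 49.9 and 122.8 RPKM in 1-cell embryos, and 91.8 and 110.6 RPKM in 2-cell embryos. The sperm sums were thus far above all others, and both stages of embryo lay above both oocyte libraries.

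The nspd gene with the highest level was nspd-2, on chromosome IV, with 3583 and 8913 RPKM in sperm, where it ranked 43rd and 8th among all genes of the table. It had 1.65 and 0.202 RPKM in oocytes, 2.78 and 15.5 RPKM in 1-cell embryos, and 7.01 and 11.6 RPKM in 2-cell embryos. In sperm nspd-2 was above oocytes by 11.63 ± 0.78 on the log2 scale (SE, limma on log2 of RPKM plus 1, adjusted p = 5.97e-06). Its embryo levels varied more between replicates than between stages.

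The next in level, nspd-1 on chromosome I, had 2663 and 5130 RPKM in sperm, 0.791 and 0.0724 RPKM in oocytes, 7.65 and 30.7 RPKM in 1-cell embryos, and 17.4 and 26.2 RPKM in 2-cell embryos. For nspd-4, on chromosome II, the values were 2336 and 3711 RPKM in sperm, 0.855 and 0.0435 RPKM in oocytes, 10.5 and 20.2 RPKM in 1-cell embryos, and 14.99 and 18.89 RPKM in 2-cell embryos. In both genes every embryo library lay above every oocyte library, and the ranges of the embryo stages overlapped. The gene nspd-3, on chromosome IV, had 2292 and 3696 RPKM in sperm, 0.561 and 0.0530 RPKM in oocytes, 3.02 and 5.91 RPKM in 1-cell embryos, and 8.43 and 6.59 RPKM in 2-cell embryos. Both its 2-cell libraries lay above both 1-cell libraries, which held for 1 of the 10 nspd genes and for 8.35% of all genes in the table.

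The remaining nspd genes were chosen for description after their values were seen. Of these, nspd-5, nspd-6, nspd-7, nspd-9 and nspd-10 had between 707 and 3945 RPKM in the sperm libraries. Sperm levels of nspd-10 were the least alike, at 858 and 3945 RPKM, and it had 0 and 2.19 RPKM in 1-cell embryos. One member stood apart from the rest: nspd-8, on chromosome I, had only 0.0670 and 0.285 RPKM in sperm and was listed at 0 in all 4 embryo libraries. It was also the only nspd gene too low to be tested.

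**Figure D2:**
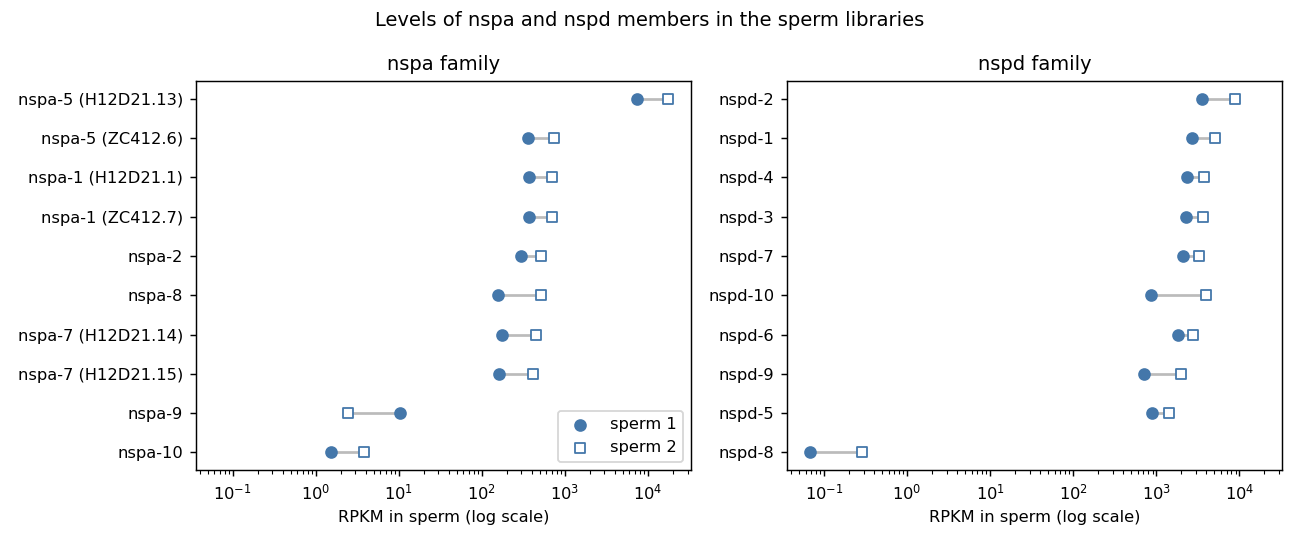
RPKM in sperm replicate 1 (filled circles) and replicate 2 (open squares) on a log scale for each nspa and each nspd gene, in order of the mean, with a line joining the replicates. Apart from nspd-8, the nspd genes lie between 707 and 8913 RPKM, while nspa-5 (H12D21.13) lies more than an order of magnitude above every other nspa gene.

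The question for sperm against oocytes is which transcripts mark each gamete. A test was made for each gene that reached 1 RPKM in 2 or more libraries, and these were 29 of the 56 members: 10 nspa, 10 nspc and 9 nspd genes. A member was called at an adjusted p under 0.05 with a difference of at least 1 on the log2 scale. All 29 tested were called higher in sperm than in oocytes, where 36.7% of the 11935 genes tested were called higher and 24.6% lower. Of the 29, 19 (9 nspa and 10 nspc) reached the test only through their sperm values and so had to differ, and their count is no support for a family effect. The 9 nspd genes and nspa-5 (H12D21.13) passed the filter without the sperm libraries as well. Their differences from oocytes ran from 9.75 to 11.63 on the log2 scale over the 9 nspd genes, and nspa-5 (H12D21.13) was 11.67 ± 0.64 higher (SE, adjusted p = 2.47e-06). Short genes in general leaned the same way, since 54.9% of the 911 tested genes of up to 500 nt were called higher in sperm.

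Against 1-cell embryos, the same 29 members were all called higher in sperm, beside 35.3% of all genes tested called higher and 33.2% lower. The 19 members that reached the test only through their sperm values had to differ here too, so their count is again no support for a family effect. The differences were smaller for nspd genes than those against oocytes, from 7.04 to 10.01 on the log2 scale. All 5 body wall muscle markers were also called higher in sperm than in 1-cell embryos, and their part in the family levels was not tested. Of the other small families, all 3 nspf genes, all 7 tested nspg genes and all 7 nsph genes were called higher in sperm in both comparisons, as were all 30 genes of the major sperm proteins (msp), which build the crawling machinery of nematode sperm. The nspf genes, the group named above beside nspd as released on activation, summed to 242.5 and 281.1 RPKM in sperm and were at 0 in all 4 embryo libraries. In oocytes they summed to 0.0261 and 0.0559 RPKM, so they reached the test only through sperm and had to differ. For nspg, of which 7 of 14 genes were tested, and for nsph and msp, the genes passing without sperm were not counted. These call counts are therefore no comparison of families.

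The 2 sperm libraries did not hold the families at the same level. The nspa sum was 2.32 times and the nspd sum 2.02 times as high in sperm replicate 2 as in replicate 1. The msp sum was 173600 RPKM in each, a ratio of 1.00. Among other small sperm families, the ratio of sums was 1.62 for the small MSP-domain genes and 1.34 for nsph (7 genes). It was lower for nspf (1.16), nspg (1.12), smz and gsp (1.115), ssq (1.10) and ssp (1.04). By the median over genes the ratio was 1.46 for the small MSP-domain genes and 1.79 for nsph, against 1.61 over the 9 nspd genes. Medians of the other 5 lists ran from 1.126 (ssq) to 1.334 (ssp). Over the 885 other genes with at least 100 RPKM in both sperm libraries, the median ratio was 1.21. All 9 tested nspd genes were higher in replicate 2, by 1.496 to 4.596 times, with nspd-10 at the upper end. Of the 5 body wall muscle markers, tnt-2, mlc-1 and unc-15 (229.1 and 292.2 RPKM) were higher in replicate 2 too. The others were not: unc-54 had 239.8 RPKM in replicate 1 and 215.3 RPKM in replicate 2, and myo-3 had 9.46 and 9.22 RPKM. The 5 cuticle markers summed to 459.6 and 1026 RPKM, with col-119 and col-140 higher in replicate 2 and rol-6, dpy-7 and sqt-3 lower. The part of RNA from muscle and other tissues and of the deeper sequencing of replicate 2 in these ratios was not tested.

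Most of the nspa sum in sperm was listed under a single gene, with the split of reads between close copies uncertain. With 7449 RPKM in sperm replicate 1 and 17680 RPKM in replicate 2, nspa-5 (H12D21.13) ranked 11th and 1st among all genes of those libraries. It made up 79.6% and 81.3% of the nspa sum in sperm, which was 9358 and 21750 RPKM. Outside sperm it had 4.06 and 1.45 RPKM in oocytes, 6.34 and 19.7 RPKM in 1-cell embryos, and 14.3 and 19.1 RPKM in 2-cell embryos. All embryo libraries lay above both oocyte libraries, and the embryo stages overlapped.

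The other gene under the symbol nspa-5, ZC412.6, had 364 and 744 RPKM in sperm, so H12D21.13 was 20.4 and 23.8 times as high in sperm replicates 1 and 2. In oocytes ZC412.6 had 0.0618 and 0.0246 RPKM, in 1-cell embryos 0.585 and 0.782 RPKM, and in 2-cell embryos 0.927 and 0.622 RPKM. It did not reach 1 RPKM in any library other than sperm. The pair under nspa-1 gave nearly equal values. In sperm, nspa-1 (H12D21.1) had 369.3 and 704.9 RPKM and nspa-1 (ZC412.7) had 368.7 and 704.6 RPKM, a ratio of 1.00 in each library. Outside sperm, nspa-1 (H12D21.1) had 0.0345 and 0.0188 RPKM in oocytes, 0.315 and 0.540 RPKM in 1-cell embryos, and 0.755 and 0.340 RPKM in 2-cell embryos. Likewise, nspa-1 (ZC412.7) had 0.0618 and 0.0188 RPKM in oocytes, 0.210 and 0.486 RPKM in 1-cell embryos, and 0.972 and 0.440 RPKM in 2-cell embryos. The nspa-7 pair was close as well, at ratios of 1.07 and 1.08 in the sperm libraries. With reads of near-identical copies possibly divided between them, these levels cannot be assigned to 1 copy.

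Among the other nspa genes, named after their values were seen, nspa-2, both nspa-7 genes and nspa-8 had between 157.6 and 523.3 RPKM in sperm. The lowest were nspa-9, the only nspa gene on X, with 10.5 and 2.46 RPKM, and nspa-10, with 1.54 and 3.81 RPKM. nspa-9 was the single nspa gene that was higher in sperm replicate 1. Both nspa-9 and nspa-10 rest on few reads, about 22.2 and 18.2 for nspa-9 and 3.27 and 28.2 for nspa-10 by the rough depths. Their calls also depended on length: with the trend of the libraries with transcript length removed, nspa-10 was called lower in sperm than in oocytes, by a log2 difference of -1.65 (limma, adjusted p = 2.98e-04), and nspa-9 was not called, at -0.80. In RPKM nspa-10 was lower in oocytes, at 0.00152 and 7.68e-04, so the negative sign came from the trend removed. All other nspa calls in sperm kept their direction under that setting. At 105 nt, the annotated nspa genes are shorter than the RNA fragments of about 250 nt that the protocol aimed for, and the effect of this on the values was not tested.

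Between 1-cell embryos and oocytes, the question is which transcripts an embryo holds soon after fertilization that the oocyte lacked. Of the 29 members tested, 6 were called higher in 1-cell embryos and 0 lower, beside 17.0% of all genes tested called higher and 5.92% lower. The 19 members that reached the test only through sperm stayed under 1 RPKM in oocytes and 1-cell embryos. On log2 of RPKM plus 1 they could not differ by 1, so only the other 10 could be called. All 6 called were nspd genes, and nspd-4 among them averaged 15.3 ± 6.87 RPKM in 1-cell embryos and 0.449 ± 0.574 RPKM in oocytes (SD, n = 2 each). By limma on log2 of RPKM plus 1, nspd-1 was higher by 3.58 ± 0.65 (SE, adjusted p = 0.0115), nspd-7 by 3.50 ± 0.44 (adjusted p = 0.00664) and nspd-4 by 3.48 ± 0.46 (adjusted p = 0.00684). The other 3 called were nspd-6, at 2.74 ± 0.41, nspd-5, at 2.24 ± 0.44, and nspd-3, at 2.04 ± 0.43, with adjusted p between 0.00827 and 0.0169.

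Not called were nspd-2, with a log2 difference of 2.15 and an adjusted p of 0.0813, nspd-9, with 1.71 and 0.0669, and nspd-10, with 0.58 and 0.693. In nspd-2 and nspd-9 both 1-cell libraries were nevertheless above both oocyte libraries. Counting without a test, 8 of the 10 nspd genes had both 1-cell libraries above both oocyte libraries, where 37.7% of all genes in the table did. Of the 911 tested genes of up to 500 nt, 255 were called higher in 1-cell embryos, with a median log2 difference of 0.83, against a median of 0.35 over all genes tested. With the length trend removed, the same 6 nspd genes were called, at 1.27 to 2.81 on the log2 scale. These calls need both oocyte libraries: with either one left out, none of the 11935 genes was called higher in 1-cell embryos, the members included. The 12 sperm markers summed to 27.6 and 19.3 RPKM in 1-cell embryos against 3.42 and 2.42 RPKM in oocytes, with 4 of 12 called higher and only spe-9 at or below its oocyte levels in both embryo libraries. The muscle markers summed to 2.12 and 0.312 RPKM in 1-cell embryos against 1.32 and 0.634 RPKM in oocytes, and 0 of 5 were called. The part of this wider sperm signal in the nspd values was not tested.

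**Figure D3:**
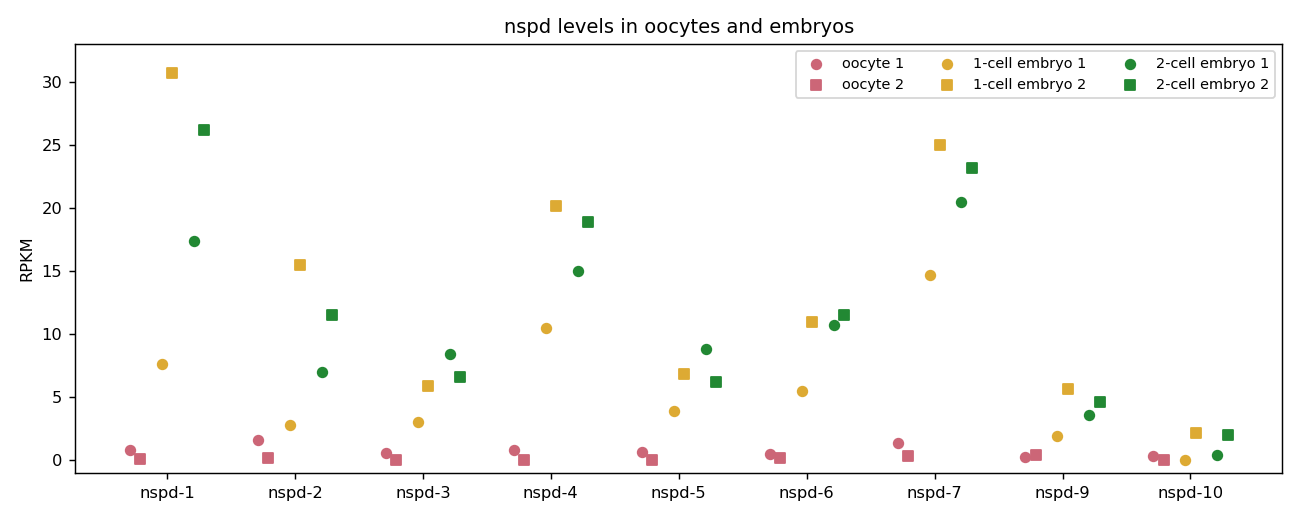
RPKM of the 9 tested nspd genes in the oocyte (red), 1-cell (yellow) and 2-cell (green) libraries on a linear axis, with circles for replicate 1 and squares for replicate 2. Oocyte values stay under 2 RPKM, and 1-cell replicate 2 lies above 1-cell replicate 1 for every gene.

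No nspa or nspc gene was called in either direction between 1-cell embryos and oocytes. Of those tested, only nspa-5 (H12D21.13) was high enough in these stages to be called on log2 of RPKM plus 1. At an unadjusted p under 0.05 by limma, 1 nspa gene and 0 nspc genes were higher. That gene, nspa-5 (H12D21.13), had a log2 difference of 1.81 and an adjusted p of 0.0767, and its call depended on the settings. It was called, at 2.55 and an adjusted p of 0.040, without 1-cell replicate 1, and at 2.15 and an adjusted p of 0.0454 with a pseudocount of 0.1 RPKM in place of 1. For the rest of nspa the embryo values lie at about 1 read, so nspa-1 (H12D21.1) at 0.315 and 0.540 RPKM in 1-cell embryos is worth about 0.679 and 1.99 reads. The nspa-7 genes came to 0.0556 of a read in 1-cell replicate 1, a fraction that whole reads counted once would not give. By contrast nspd-1 stood on about 33.5 and 229 reads in the 1-cell libraries and 65.1 and 167 reads in the 2-cell libraries. Both 1-cell libraries lay above both oocyte libraries in 6 of the 10 nspa genes, where 37.7% of all genes did so. With the pseudocount of 0.1 RPKM, nspa-1 (H12D21.1), nspa-2 and nspa-5 (ZC412.6) were called higher as well, by 2.03, 1.77 and 2.45 on the log2 scale (limma, adjusted p = 0.0319, 0.0492 and 0.0148). The calls of these low genes thus turned on the pseudocount.

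Set against the level in sperm, the nspd median in 1-cell embryos was above that of most other sperm families listed. The mean of the 1-cell libraries was 0.0455% to 0.731% of the sperm mean over the 9 nspd genes with at least 100 RPKM in both sperm libraries, with a median of 0.361%. That median was 0.196% with 1-cell replicate 1 alone and 0.480% with replicate 2 alone. For the 8 nspa genes above that level the range was 0.0201% to 0.123%, with a median of 0.0722%, or 0.0448% and 0.0932% in 1-cell replicates 1 and 2. The median was 0.0206% over 29 msp genes, 0.0359% over 5 nsph genes, 0.0522% over 4 small MSP-domain genes (the pair under the symbol msd-1, msd-2 and msd-4), 0.0497% over 4 ssq genes and 0.109% over 9 ssp genes. The sperm genes smz-1, smz-2, gsp-3 and gsp-4 gave 0.305%, and their order against nspd changed with the library: 0.327% in 1-cell replicate 1, above nspd, and 0.284% in replicate 2, below it. The median over the 885 other genes abundant in sperm, many of which are also present in oocytes, was 1.31%. No test was made between these families, and 25% of the ssp genes and 75% of the smz and gsp genes were themselves called higher in 1-cell embryos than in oocytes.

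**Figure D4:**
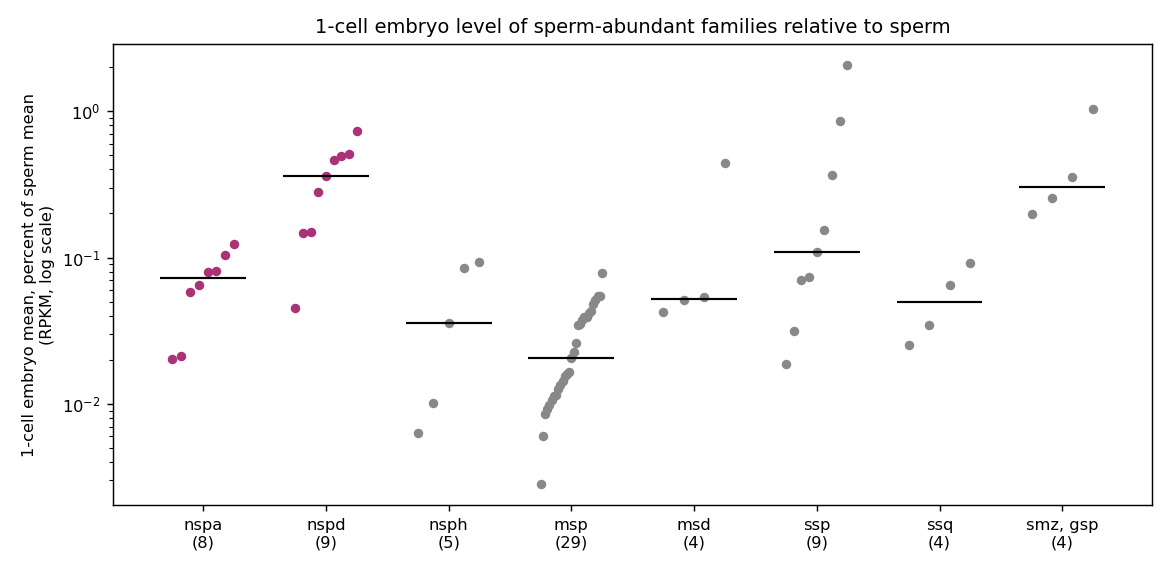
Mean RPKM of the 1-cell libraries as a percent of the sperm mean, on a log scale, for genes with at least 100 RPKM in both sperm libraries. Each point is a gene, each bar a family median, and the number of genes is in brackets. The nspd median of 0.361% lies above those of nspa (0.0722%) and msp (0.0206%) and beside that of smz and gsp (0.305%), whose order against nspd differs between the 1-cell replicates, and single ssp genes lie higher still.

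Within nspd the share of the sperm level found in embryos varied from gene to gene. The most abundant in sperm, nspd-2, held 0.146% of its sperm mean in 1-cell embryos, and nspd-10 held 0.0455%, while nspd-7 held 0.731%. The resulting order of levels in 1-cell embryos began with nspd-7 and nspd-1, at means of 19.8 and 19.2 RPKM, and ended with nspd-10 at 1.09 RPKM. Neighbours in that order did not differ beyond the spread of the replicates, since nspd-1 alone ran from 7.65 to 30.7 RPKM. As a description over the 9 genes, which share libraries, length and sequence family, Spearman's rho was 0.533 between sperm and 1-cell means and 0.983 between 1-cell and 2-cell means. Between replicates it was 0.717 in sperm and 0.85 in 1-cell embryos.

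Between 2-cell and 1-cell embryos no member was called in either direction, beside 0.0168% of all genes tested called higher (2 genes) and 0 called lower by limma. The 19 members that reached the test only through sperm stayed under 1 RPKM in both stages and could not be called. At an unadjusted p under 0.05, 0 of the 29 members differed, and 47 genes of the table were higher and 31 lower. The log2 differences of the 9 nspd genes ran from 0.18 to 0.68, and the 95% confidence interval of nspd-4, from -0.88 to 1.27, spans changes in both directions. The interval for nspd-7 ran from -0.84 to 1.19. A change of nspd levels within these intervals was not detectable with 2 libraries a stage in this model, which did not pair the libraries. The same-numbered embryo libraries moved together in the table as a whole, with a correlation of 0.877 between their deviations from the stage means. Taken by number, the nspd sum rose from 49.9 RPKM at the 1-cell stage to 91.8 RPKM at the 2-cell stage in replicate 1. In replicate 2 it fell from 122.8 to 110.6 RPKM, so the direction was not shared.

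The nspc genes were sperm transcripts of low level. Over the 17 genes, values ran from 0.8996 to 13.77 RPKM in sperm replicate 1 and from 0.0956 to 10.6 RPKM in replicate 2, and the family summed to 90.8 and 73.1 RPKM. In oocytes the sums were 0.838 and 0.671 RPKM, in 1-cell embryos 0.558 and 0.0910 RPKM, and in 2-cell embryos 0.242 and 0.0213 RPKM. All 17 had both sperm libraries above both oocyte libraries, as did 45.2% of all genes in the table, and all of them stayed under 1 RPKM outside sperm.

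The highest was nspc-14 (F42F12.7), with 13.8 and 9.67 RPKM in sperm, 0.0156 and 0.115 RPKM in oocytes and 0 in all 4 embryo libraries. It was higher in sperm than in oocytes by 3.56 ± 0.23 on the log2 scale (SE, limma, adjusted p = 5.11e-06). Like every nspc gene tested, it reached the test only through its sperm values and so had to differ. Next came nspc-15 (F42F12.8), with 13.7 and 8.59 RPKM in sperm, 0.0542 and 0.0279 RPKM in oocytes and 0 in every embryo library. From the D1025 group, nspc-16 had 9.22 and 10.6 RPKM in sperm, 0.0606 and 0.0514 RPKM in oocytes, 0 in both 1-cell libraries, and 0.0246 and 0 RPKM in 2-cell embryos. From the same group, nspc-20 had 6.38 and 9.86 RPKM in sperm, 0.0156 and 0.0296 RPKM in oocytes, 0 in both 1-cell libraries, and 0.0476 and 0 RPKM in 2-cell embryos. In these 4 genes sperm and the other stages did not overlap. Only nspc-17, singled out after its values were seen, was above 0 in all 4 embryo libraries, at 0.290 and 0.0910 RPKM in 1-cell and 0.145 and 0.0213 RPKM in 2-cell embryos, or about 2.27 reads at most.

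The balance between the sperm libraries differed between the clone groups of nspc genes. All 7 C03G5 genes were higher in sperm replicate 1, by 3.40 to 10.9 times with a median of 4.80, and none of them reached 1 RPKM in replicate 2. The 6 F42F12 genes were also higher in replicate 1, by 1.25 to 2.01 times. The 4 D1025 genes were all higher in replicate 2, with ratios of replicate 1 to replicate 2 from 0.647 to 0.868. The 7 C03G5 genes were therefore the ones left out by the filter, and the 10 nspc genes tested were those of the F42F12 and D1025 groups. Each of the 24 embryo values of the F42F12 genes was 0. The C03G5 values rest on few reads, such as about 18.3 and 13.1 for nspc-7, and genes of a group may share reads. Sperm replicate 1 also held more of the oocyte markers, at a sum of 946 RPKM against 250 RPKM in replicate 2, and of the intestine markers, at 427.7 RPKM against 75.1 RPKM, and the part of other tissues in the C03G5 values was not tested.

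**Figure D5:**
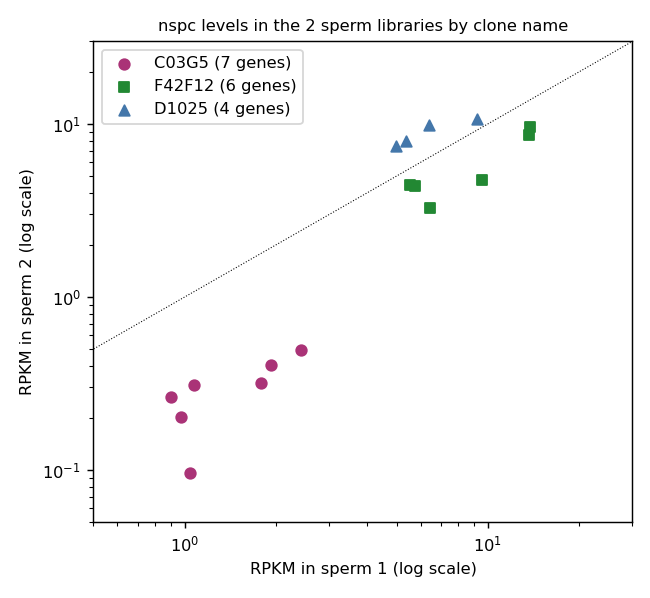
RPKM in sperm replicate 2 against sperm replicate 1, both on log scales, for the 17 nspc genes, with a symbol for each clone group and a dotted line of equal values. The 4 D1025 genes lie above the line and the F42F12 and C03G5 genes below it, with the 7 C03G5 genes farthest from it.

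The nspb genes were close to the limit of detection in every stage. The highest value of any of the 12 was 0.409 RPKM, in sperm, and 11 of 12 were listed at 0 in each 1-cell library. In sperm, nspb-8 had 0.353 and 0.395 RPKM, nspb-7 had 0.409 and 0.130 RPKM, nspb-10 had 0.377 and 0.167 RPKM and nspb-12 had 0.0623 and 0.0714 RPKM. In oocytes these 4 genes had at most 0.0105 RPKM. In embryos, nspb-8 and nspb-10 were at 0 throughout, nspb-7 was above 0 only in 2-cell replicate 1, at 0.104 RPKM, and nspb-12 had 0.122 and 0.215 RPKM in 1-cell embryos and 0.214 and 0 RPKM in 2-cell embryos. These amounts are worth a few reads, 9.77 for nspb-8 in sperm replicate 2 and 2.96 for nspb-12 in 1-cell replicate 2, so no difference between stages could be shown.

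The nspe genes were as low, and sperm was not their highest stage. Their sums were 0.397 and 0.610 RPKM in sperm, 0.182 and 0.0791 RPKM in oocytes, 1.04 and 0.379 RPKM in 1-cell embryos, and 2.04 and 4.03 RPKM in 2-cell embryos. Both 2-cell sums lay above all 6 others. The highest gene, nspe-1, had 0 and 0.395 RPKM in sperm, 0.0254 and 0.0345 RPKM in oocytes, 0.338 and 0 RPKM in 1-cell embryos, and 0.658 and 0.774 RPKM in 2-cell embryos. For nspe-2 the values were 0.230 and 0.0329 RPKM in sperm, 0.0586 and 0.0174 RPKM in oocytes, 0 and 0.264 RPKM in 1-cell embryos, and 0.527 and 1.08 RPKM in 2-cell embryos. Both genes were highest in the 2-cell libraries.

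For nspe-7 the values were 0.0703 and 0.0201 RPKM in sperm, 0.0152 and 0.0130 RPKM in oocytes, 0.345 and 0 RPKM in 1-cell embryos, and 0.161 and 0.947 RPKM in 2-cell embryos, where the embryo stages overlapped. The gene nspe-6 was at 0 in both sperm libraries, with 0.00386 and 2.94e-04 RPKM in oocytes, 0.178 and 0 RPKM in 1-cell embryos, and 0.623 and 0.244 RPKM in 2-cell embryos. In 4 of the 7 nspe genes both 2-cell libraries lay above both 1-cell libraries, where 8.35% of all genes in the table did. These values are small, about 2.5 and 5.0 reads for nspe-1 in the 2-cell libraries. The most reads fell to nspe-4, named after its values were seen and the longest of the family at 1448 nt. It had about 1.88 and 23.5 reads in the 2-cell libraries and 0 in both 1-cell libraries. No nspe gene passed the filter for a test, and neighbouring genes may share reads, so the count is a description of these libraries. Markers of older embryos were also low, the 5 summing to 8.44 and 12.3 RPKM in 2-cell embryos against 7.195 and 5.234 RPKM in 1-cell embryos, and their part in the nspe values was not tested.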

How the data were processed

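Polyadenylated RNA was measured in 8 libraries, grouped by their titles into 4 groups of 2, and all were used. The authors deposited RPKM values for 21774 genes. Per the submitters' processing notes reads were aligned with BWA (version not given), and the build, annotation, counting tool, strand use and treatment of reads with several matches are not given in the sources used here. Per the labels' protocols, RNA was fragmented to about 250 nt and primed with random hexamers.

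Sequence names were matched to the Ensembl WBcel235 annotation (18746 matched, 3028 did not). The 11935 genes that reached 1 RPKM in 2 or more libraries went into limma 3.58.1 (R 4.3.3), as log2(RPKM + 1), on which the changes of low genes come out too small. A one-way model of the 4 groups with a variance trend left 4 residual degrees of freedom. Tests were two-sided, with Benjamini-Hochberg adjustment over all genes tested in a comparison, and a call needed a log2 difference of 1 or more either way with an adjusted p under 0.05. The procedure was tested on simulated data with the same independent noise in every group and changes in sperm only. The real spread differed between groups, with a median log2 SD of 0.094 in oocytes and 0.413 in sperm. The simulation therefore does not cover the calls between 1-cell embryos and oocytes. Levels were summarised with Python 3.11.15 and pandas 2.3.3.

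The members and lists were chosen with earlier results of these data known, so no p-value is given for a family. In each family the 4 members with the highest mean RPKM are given in full, and others are named as chosen after their values were seen. Alternatives were another pseudocount (0.1 or 5 RPKM), filter or scaling, removal of the length trend, fits of 2 groups only, a replicate block, and leaving out each library. Added after seeing the data were a block with exchanged oocyte numbers and fits without both oocyte libraries. The genomic library kit named in the labels does not mark strand, so reads of overlapping or antisense genes cannot be told apart.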

Additional observations from a re-analysis of the deposited data

How the results depend on the processing

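Under every alternative run, the tested nspd members and those nspa members above 100 RPKM in sperm were called higher in sperm than in oocytes and 1-cell embryos. These nspa members were picked by their sperm level, and all but nspa-5 (H12D21.13) reached the main test only through sperm. Their calls are therefore no support for a family effect. Members called higher in 1-cell embryos than in oocytes numbered 6. They were 12 with a pseudocount of 0.1 RPKM (8 nspd, 4 nspa), 4 with a pseudocount of 5 RPKM, 4 with quantile normalization, and 0 to 9 on leaving out 1 library, with 0 without oocyte replicate 1 and without oocyte replicate 2. There the log2 difference of nspd-4 was 3.90 (adjusted p = 0.0808) and 3.07 (adjusted p = 0.0894). Over all genes, 0 were called higher without either oocyte library, against 1227 to 1922 without any 1 of the others, and the cause was not tested. With the replicate block 7 were called, nspd-9 added (adjusted p = 0.0254), and with the oocyte numbers exchanged 6. The deviations of same-numbered libraries correlated at -0.17 between 1-cell embryos and oocytes, and nothing in the labels pairs them.

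With the length trend removed, 1 member was called lower in sperm than in oocytes and 1 lower than in 1-cell embryos (nspa-10, log2 difference -1.65 and -1.10), against 0 otherwise. The RPKM of nspa-10 themselves were higher in sperm than in either, so the sign came from the trend removed. With a filter of 5 RPKM, 5 nspc members were called higher in sperm in place of 10, since fewer were tested. A pseudocount of 5 RPKM ended the calls of nspc-9, nspc-13 and nspa-10 in both sperm comparisons. Quantile normalization ended that of nspa-10 in both and that of nspc-9 against oocytes.

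Scaling moved the table as a whole. In 1-cell embryos against oocytes, 2033 genes were called higher and 707 lower, against 955 and 962 under a common RPKM sum, 597 and 734 without the length trend, and 554 and 884 under quantile normalization. The median log2 difference of 0.35 became 0.15, 0.03 and 0.05. The 6 nspd calls remained under a common sum and without the length trend, and under quantile normalization nspd-3 (1.52, adjusted p = 0.0729) and nspd-5 (1.77, adjusted p = 0.0573) were lost. In sperm against oocytes 4375 genes were called higher and 2938 lower, against 3461 and 3716 without the length trend and 2807 and 4702 under quantile normalization. Counting depth limits nspb, nspe and most nspa values in embryos, which mostly rest on a few reads, with about 23.5 for nspe-4 in 2-cell replicate 2 as an exception.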
